A study of Mus musculus with 48 samples.

Results

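RXRA and RXRB, the retinoid X receptors that pair with PPARγ, and 3 related lipid-sensing receptors, PPARD (PPARδ), NR1H3 (LXRα) and NR1H2 (LXRβ), were followed through the conversion of 3T3-L1 fibroblasts into adipocytes with and without PPARγ. All probes carrying one of these 5 symbols on the array were taken, which gave 7 probes, since RXRB and NR1H3 have a pair of probes each, out of 24613 probes under 18991 symbols. 3T3-L1 is an established line of mouse fibroblasts that turn into fat-storing cells under a hormone cocktail. Before differentiation the cells were transfected at 50 nM with a pool of siRNAs against PPARγ (PPARγ KD) or with a pool of siRNAs that has no target (control siRNA). The schedule was the same for both kinds of cells, 48 h in dexamethasone (0.25 µM) with IBMX (0.5 mM) and then 48 h in insulin (5 µg/ml) with rosiglitazone (1 µM), a drug that activates PPARγ. RNA was taken on day −2 and on days 0, 1, 2, 3, 4, 5 and 6, counted from the addition of rosiglitazone, so that the arrays of days −2 and 0 precede insulin and rosiglitazone, in 3 independent biological replicates, which made 48 arrays with 24 for each siRNA. By this count dexamethasone and IBMX were started on day −2. The study's methods do not say whether the RNA of that day was taken before their addition. The KD is a transient one in a single cell line, and no cells kept off the cocktail throughout and none without siRNA were analysed here.

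All 5 receptors are transcription factors of the nuclear receptor family that bind lipids. PPARγ drives adipocyte differentiation and binds DNA together with an RXR, itself a receptor for retinoids, as a heterodimer. The same RXR molecules also serve PPARδ, a fatty acid sensor that turns on lipid oxidation, and the LXRs, which sense oxysterols and turn on cholesterol efflux and fatty acid synthesis. LXRα is the member of the LXR pair that is abundant in liver, fat and macrophages, while LXRβ is found in most tissues.

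Each probe is read on many beads per array (35 in the median), and its value here is the log2 of the mean bead intensity after background correction and scaling of the arrays. A probe counted as above background on an array at a detection p under 0.01, which held for 33.4% to 40.4% of the probes of an array. The arrays of replicate 3 had fewer such probes (33.4% to 35.4%) than those of replicates 1 and 2 (36.8% to 40.4%), and the replicate number was therefore kept as a block in every test. The targeted gene was checked first: on its brightest probe PPARG lay between 10.00 and 12.22 on the 24 control arrays and between 7.58 and 9.81 on the 24 KD arrays. It was lower in the KD by 2.34 on the log2 scale (SE 0.04, adjusted p = 9.48e-34) and lower in 24 of 24 pairs of arrays. The cell type was checked on marker genes. Of 10 adipocyte markers, 1 was above background on all 3 control arrays of day −2 and 9 were on those of day 6, all 10 fibroblast and preadipocyte markers were above background, and none of 16 markers of blood, endothelial, epithelial and muscle cells was above background on any array.

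Differences between PPARγ KD and control siRNA were tested with limma, and a probe was called where its p, after Bonferroni adjustment over all 24613 probes, did not exceed 0.05. Averaged over days −2 to 6, 3 of the 7 receptor probes were called, both NR1H3 probes and the RXRA probe, where 13.1% of all probes were called. Many probes of the array lie at the background, and of the 9217 probes above background on at least 24 arrays 30.4% were called. All 3 were lower in the KD, as were 6.74% of all probes. Over days 4 to 6, the same 3 probes were called on the 18 arrays of those days, all of them lower, against 5.31% of all probes called, 3.77% called as lower and 11.8% called among those 9217 probes. The 4 probes of RXRB, PPARD and NR1H2 were called in neither comparison.

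Promoters are shown for the 2 receptors whose level differed between the siRNAs, taken from RefSeq on GRCm38.p6 as 250 bases before and 50 bases after an annotated start. All 5 receptors had an entry, in 8 windows. Hexamers that nuclear receptors bind were searched on both strands, namely the half-site AGGTCA and its common variants, the one spelled GGGTCA and the one spelled AGGGCA, as were their direct repeats spaced by 1 base, the arrangement PPAR and RXR bind together, or by 4 bases, that of LXR and RXR. The capitals mark the hexamers found, and no hexamer overlapped with another. The Nr1h3 window lies at chr2:91195067-91195366 on the minus strand, and the Rxra window at chr2:27709042-27709341 on the plus strand.
Nr1h3: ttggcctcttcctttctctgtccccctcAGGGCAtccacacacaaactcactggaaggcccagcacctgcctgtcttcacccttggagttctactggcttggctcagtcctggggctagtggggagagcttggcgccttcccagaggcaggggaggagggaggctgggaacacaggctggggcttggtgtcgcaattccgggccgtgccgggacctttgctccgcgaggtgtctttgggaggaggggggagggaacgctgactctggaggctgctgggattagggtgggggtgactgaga
Rxra: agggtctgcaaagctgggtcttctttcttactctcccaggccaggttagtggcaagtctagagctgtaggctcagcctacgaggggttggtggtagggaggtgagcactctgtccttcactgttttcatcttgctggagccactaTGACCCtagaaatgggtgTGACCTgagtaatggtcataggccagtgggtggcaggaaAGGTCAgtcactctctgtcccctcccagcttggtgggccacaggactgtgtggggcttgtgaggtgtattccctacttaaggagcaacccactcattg
The Nr1h3 window held 1 hexamer, AGGGCA on the strand shown, beginning 222 bases before the start. The Rxra window held 3, AGGTCA beginning 48 bases before the start and, on the opposite strand, AGGTCA at 87 bases and another hexamer, GGGTCA, at 105 bases before it. The other window of each gene, which lies at chr2:91194986-91195285 for Nr1h3 and at chr2:27676951-27677250 for Rxra, held none. For both genes the window shown is thus the one that held hexamers. The windows of Nr1h3 overlap, while those of Rxra lie far apart, at separate annotated starts. Which start the measured RNA came from was not tested. Of the receptors not called, Ppard held 1 hexamer, AGGGCA beginning 179 bases before the start, and the windows of Rxrb and Nr1h2 held none. Single hexamers are frequent: 16.3%, 13.7% and 20.4% of the 32851 promoter windows of this length hold the half-site AGGTCA, the variant GGGTCA and the variant AGGGCA in that order, and 42% hold at least 1 of the 3. No direct repeat was found in any of the 8 windows, and 0.253% of all windows held one spaced by 1 base and 0.103% one spaced by 4. These are letter matches within 300 bases of one start and not binding sites.

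NR1H3 changed most between the siRNAs among the 7 probes. In control siRNA cells its brighter probe (4810215) read 6.57, 6.58 and 6.43 (replicates 1, 2 and 3) on day −2, then 6.32, 6.46 and 6.56 on day 0. It reached 8.15, 8.17 and 8.37 on day 1, then 9.85, 9.83 and 9.77 on day 2. LXRα thus lay at the edge of the background until rosiglitazone and insulin were added and was well above it one day later. From day 3 to day 6 the control arrays stayed between 9.54 and 10.06. Against day −2, the control level rose by 1.70 on day 1 (SE 0.13, adjusted p = 1.18e-10), by 3.29 on day 2 and by 3.48 on day 6.

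In PPARγ KD cells the same probe read 6.81, 6.83 and 6.58 on day −2, then 5.93, 5.47 and 5.76 on day 0, where none of the 3 arrays was above background. It read 7.42, 7.21 and 7.50 on day 2, then 7.72, 7.38 and 8.11 on day 6. The induction seen under control siRNA was therefore smaller but not absent, and every KD array lay below every control array of its day from day 0 to day 6. The KD level of NR1H3 on day 6 was 1.00 above day −2 (SE 0.13, adjusted p = 0.000190), a call that was lost without replicate 1 (1.04, adjusted p = 0.321) and without replicate 3 (0.73, adjusted p = 0.831). The fall from day −2 to day 0 in the KD was 1.03 on the log2 scale as measured (adjusted p = 0.000101) and, because day 0 was below background, at least 1.16-fold. On day −2 itself 2 of the 3 KD arrays were above background. That call was lost without background correction (-0.49, adjusted p = 1), without replicate 1 (-1.09, adjusted p = 0.167) and without replicate 2 (-0.86, adjusted p = 0.293).

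Averaged over the 8 days, NR1H3 was lower in the KD by 1.82 on the log2 scale (SE 0.05, 3.53-fold, adjusted p = 4.69e-27), with 21 of 24 pairs of arrays lower and replicate differences of -1.76, -2.03 and -1.67. Over days 4 to 6 it was lower by 2.47 (SE 0.08, 5.56-fold, adjusted p = 3.35e-12) in 9 of 9 pairs. By day, the KD minus control difference of this probe was 0.22 on day −2 (SE 0.13, adjusted p = 1) and -0.73 on day 0, the latter not called (adjusted p = 0.0899). It was then called on each of days 1 to 6, at -1.54, -2.44, -2.64, -2.43, -2.73 and -2.26. The lower LXRα in the KD was thus called from day 1 through the last day measured. On day 0 no KD array was above background. The control mean of that day, 6.45, was too low for a bound, so the onset cannot be placed. The effect on days 4 to 6 exceeded that on days 0 to 2, with a difference of -0.90 between them (SE 0.11, adjusted p = 1.61e-05 in the test of the difference itself), a contrast in which 2 of the 7 receptor probes, both of NR1H3, and 3.63% of all probes were called. Without replicate 1 this difference was -0.89 (adjusted p = 0.172). The early days include day 0, when no KD array was above background, and on day 2 alone the effect was already -2.44.

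The dimmer NR1H3 probe (5570292) followed the same course nearer to the background, with a Pearson correlation of 0.955 between the 16 condition means of the 2 probes. Its signal rose above background in 9 of 24 control arrays, all from day 2 on, and in 0 of 24 KD arrays. On day 6 it read 6.65, 6.81 and 7.16 under control siRNA and 5.13, 5.12 and 5.60 in the KD. Since the KD side was never above background, its difference is given as a bound: at least 1.26-fold lower on day 2, at least 1.24-fold on day 5 and at least 1.31-fold on day 6. Over days 4 to 6 it was at least 1.14-fold. On the other days and over days −2 to 6 the control mean was itself too low, and no bound could be set. Fitted as measured, it was lower by 1.03 over all days (adjusted p = 1.09e-16) and by 1.55 over days 4 to 6 (adjusted p = 1.19e-07). The control level on day 6 was at least 1.39-fold above that of day −2, which was below background on all 3 arrays.

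**Figure D1:**
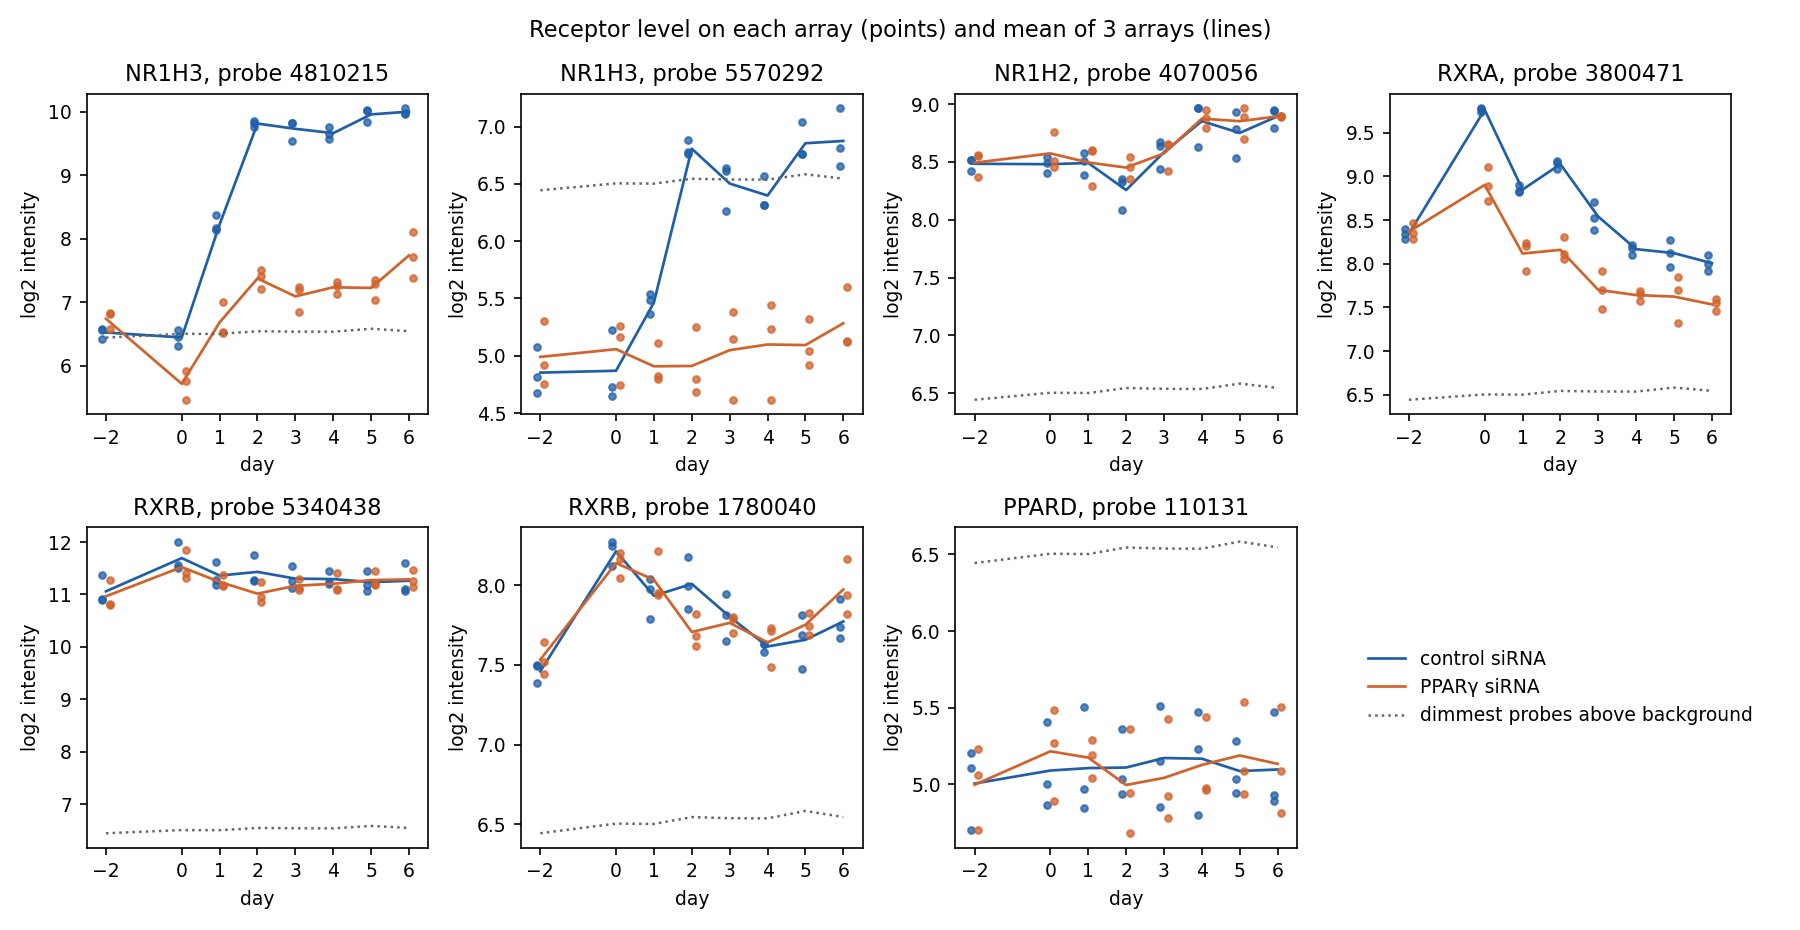
Log2 intensity of the 7 receptor probes (vertical axes, each with its own range) by day of differentiation (horizontal axes). Points are single arrays, lines join the means of 3 arrays, and the dotted line is the mean lowest signal that counted as above background on that day's arrays. NR1H3 climbs between days 0 and 2 under control siRNA and climbs less in the KD, RXRA peaks on day 0, and PPARD lies below the dotted line throughout.

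In a culture that contains differentiated and undifferentiated cells, less NR1H3 RNA per cell and fewer cells that express it cannot be told apart. Adipocyte markers moved with NR1H3: all 10 were called as lower in the KD over days −2 to 6, and the summed intensity of the list on day 6 ran from 138119 to 153037 on the 3 control arrays and from 20306 to 25560 on the 3 KD arrays. Over the same days 13.1% of all probes were called and 6.74% were called as lower. Of the 9217 probes above background on at least 24 arrays, 30.4% were called. Of the 10 fibroblast and preadipocyte markers, 5 were called as higher in the KD and none as lower. Under the alternative settings of the processing, 3 to 8 of them were called as higher. Their summed intensity on day 6 was 116301 to 129430 under control siRNA and 136531 to 146365 in the KD. The part of these shifts in the receptors' differences was not tested. The markers of other cell types stayed at the background with both siRNAs.

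NR1H2, the other LXR, had a different course. Its probe was above background on all 48 arrays. Control arrays read 8.52, 8.51 and 8.42 on day −2, beside 8.56, 8.55 and 8.37 in the KD. By day 6 the control arrays had 8.94, 8.80 and 8.95 and the KD arrays 8.90, 8.89 and 8.90. LXRβ arrays of the 2 siRNAs overlapped on both days. The KD minus control difference over all days was 0.05 (95% interval -0.01 to 0.12, adjusted p = 1) and over days 4 to 6 it was 0.04 (-0.08 to 0.16, adjusted p = 1). NR1H2 changed over time in control siRNA cells (span of the daily means 0.64, adjusted p = 0.00286), from a lowest mean of 8.26 on day 2 to 8.89 on day 6, but no single day was called against day −2 and the call over time was lost without each of replicates 1, 2 and 3 (adjusted p between 0.0564 and 1). In the KD the change over time missed the threshold (span 0.44, adjusted p = 0.0665).

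RXRA, the RXR isoform abundant in liver, skin and fat, differed between the siRNAs as well, in another way. Its probe (3800471) was above background on all 48 arrays. Under control siRNA it read 8.34, 8.29 and 8.40 on day −2, then 9.78, 9.73 and 9.77 on day 0, at the end of the IBMX and dexamethasone step. RXRα was thus at its highest in control cells before rosiglitazone was added. On day 2 it read 9.18, 9.09 and 9.15, and by day 6 the arrays lay between 7.92 and 8.10. Against day −2, the control level rose by 1.42 on day 0 (SE 0.11, adjusted p = 3.49e-11) and by 0.80 on day 2 (adjusted p = 0.000204), while the day 6 difference of -0.34 was not called (adjusted p = 1). The day 2 call was lost without replicate 1 (0.77, adjusted p = 0.908) and without replicate 2 (0.79, adjusted p = 0.0518).

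In PPARγ KD cells RXRA read 8.35, 8.47 and 8.28 on day −2, then 8.88, 8.72 and 9.10 on day 0. The day 0 level was 0.54 above that of day −2, which was not called (SE 0.11, adjusted p = 0.371). It read 8.06, 8.11 and 8.31 on day 2, then 7.47, 7.55 and 7.59 on day 6. KD cells therefore showed a smaller peak and then a level below the one they began with: the differences from day −2 were -0.67, -0.73, -0.74 and -0.83 on days 3, 4, 5 and 6, and all 4 were called (adjusted p between 7.48e-05 and 0.00851). None of these 4 calls held without replicate 1 (-0.67 to -0.80, adjusted p between 0.565 and 1) or without replicate 2 (-0.51 to -0.79, adjusted p between 0.0560 and 1).

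Averaged over the 8 days, RXRA was lower in the KD by 0.61 on the log2 scale (SE 0.04, 1.53-fold, adjusted p = 7.14e-14), in 22 of 24 pairs of arrays and with replicate differences of -0.67, -0.69 and -0.47. Over days 4 to 6 it was lower by 0.50 (SE 0.07, 1.41-fold, adjusted p = 0.0260) in 9 of 9 pairs. By day, the difference was 0.02 on day −2, where the arrays of the siRNAs overlapped, and -0.86, -0.73, -0.98 and -0.84 on days 0 to 3, which were called. On days 4 to 6 it was -0.53, -0.50 and -0.47, with adjusted p of 0.500, 1 and 1, although no KD array reached the lowest control array of its day on any day from 0 to 6. The daily calls rested on 3 replicates: none of the 4 held without replicate 1 (-0.75 to -0.91, adjusted p between 0.110 and 1), and that of day 2 alone held without replicate 2. The call over days 4 to 6 was lost without replicate 1 (-0.47, adjusted p = 1), replicate 2 (-0.45, adjusted p = 1) and replicate 3 (-0.57, adjusted p = 0.340).

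The siRNA difference of RXRA was thus first seen on day 0, at -0.86 beside 0.02 on day −2. The change of the difference between these days, a contrast chosen after the daily values were seen, was -0.88 (SE 0.15, adjusted p = 0.0283), and RXRA was the 1 receptor probe of 7 called in it, where 0.662% of all probes were called. It was -0.95 as measured for the brighter NR1H3 probe, which was above background on no KD array of day 0 and was not called (adjusted p = 0.363). Without replicate 1, 2 or 3 the RXRA change was -0.87, -0.73 and -1.05 and no longer called (adjusted p between 0.0952 and 1). The effect on days 4 to 6 minus that on days 0 to 2 was 0.36 for RXRA (SE 0.09, adjusted p = 1).

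**Figure D2:**
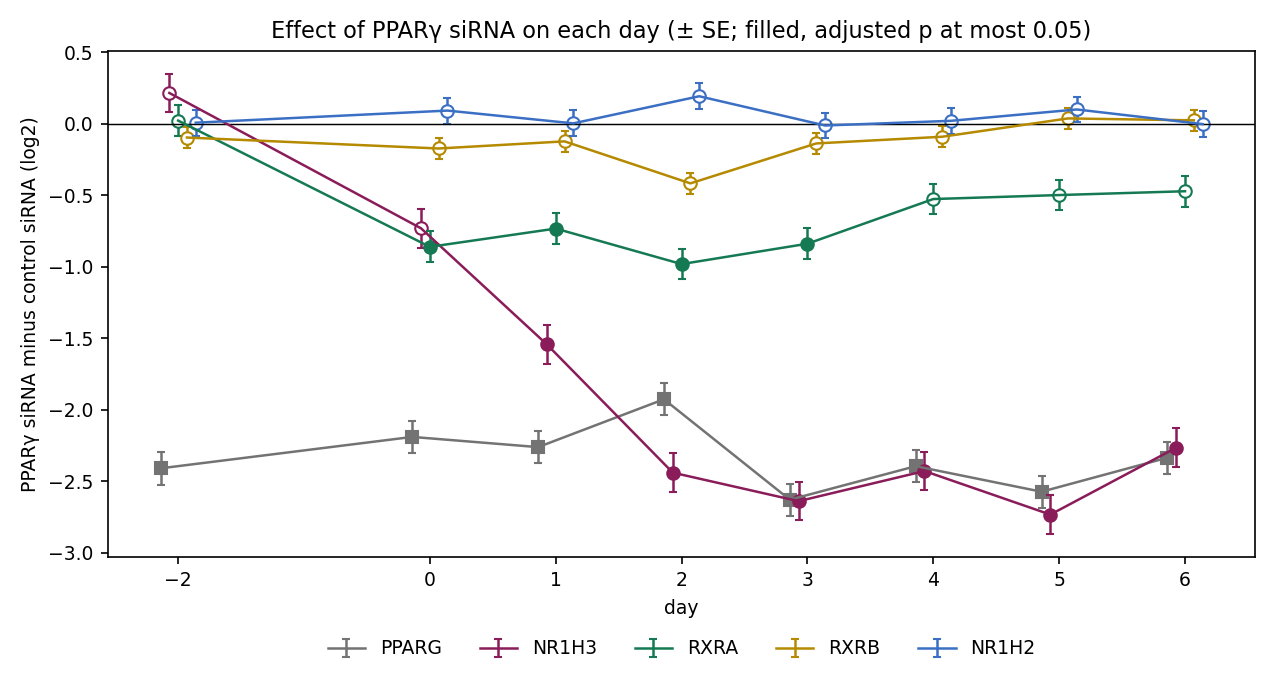
PPARγ KD minus control siRNA difference in log2 intensity (vertical axis) by day (horizontal axis) for PPARG, NR1H3, RXRA, RXRB and NR1H2, each by its brightest probe. Points are estimates from 3 arrays per siRNA, bars are ± SE, and filled symbols passed the threshold of 0.05 after Bonferroni adjustment. PPARG is already lower on day −2, RXRA separates on day 0, NR1H3 lies between -2.26 and -2.73 from day 2 on, RXRB reaches -0.42 on day 2 without being called, and no day of NR1H2 is called.

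RXRB, the RXR isoform found in most tissues, is measured by 2 probes that were above background on all 48 arrays. Under control siRNA the brighter probe (5340438) started at 10.92, 10.89 and 11.37 on day −2. Its day 0 arrays read 11.57, 11.50 and 12.01 and its day 6 arrays 11.11, 11.07 and 11.60, with replicate 3 the highest each time. In the KD it read 10.82, 10.81 and 11.27, then 11.31, 11.40 and 11.85, then 11.26, 11.14 and 11.47 on the same days. RXRβ thus peaked on day 0 with either siRNA. The arrays of the siRNAs overlapped on these days, while within replicates the KD minus control difference of day −2 was -0.10, -0.08 and -0.11, that of day 0 was -0.26, -0.10 and -0.16, and that of day 6 was 0.15, 0.07 and -0.14. The rise from day −2 to day 0 was 0.63 under control siRNA (adjusted p = 6.50e-06) and 0.56 in the KD (adjusted p = 0.000141). On the dimmer probe (1780040) it was 0.75 (adjusted p = 0.000287) and 0.61 (adjusted p = 0.0235). These 4 calls were lost without replicate 1 and without replicate 2, with differences between 0.54 and 0.75 and adjusted p between 0.0971 and 1, and that of the dimmer probe in the KD also without replicate 3 (0.56, adjusted p = 0.180) and without background correction (0.42, adjusted p = 0.0937).

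Over all days the KD minus control difference was -0.12 on the brighter RXRB probe (95% interval -0.17 to -0.07, unadjusted p = 4.73e-05, adjusted p = 1) and 0.01 on the dimmer one (-0.06 to 0.08, adjusted p = 1), with 19 and 12 of 24 pairs lower in the KD. The largest daily difference of the brighter probe was -0.42 on day 2, just outside the threshold (SE 0.07, adjusted p = 0.0518), where the median over all probes was itself -0.12. On that day the brighter probe read 11.26, 11.28 and 11.75 under control siRNA and 10.95, 10.86 and 11.23 in the KD, without overlap. The dimmer probe had -0.30 on day 2 (adjusted p = 1). Over days 4 to 6 the differences were -0.01 (-0.11 to 0.09) and 0.11 (-0.03 to 0.24), neither of them called. The correlation of the 2 RXRB probes over the 16 condition means was 0.830.

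PPARD could not be measured. Its probe (110131) was above background on 0 of 48 arrays, with a lowest detection p of 0.165, and its signal before background correction lay between 82.9 and 122.8. After correction it read 4.70, 5.11 and 5.20 on the control arrays and 5.06, 4.70 and 5.23 on the KD arrays of day −2, and 4.89, 4.93 and 5.47 against 5.08, 4.81 and 5.50 on day 6. The fitted difference of 0.01 (SE 0.04, adjusted p = 1) therefore compares background readings, and neither a level nor a change of the PPARδ transcript can be read from this probe. RXRG, the remaining RXR isoform and not one of the 5 receptors, was likewise above background on no array.

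Read day by day, the number of the 7 receptor probes called between the siRNAs was 0 on day −2, where 0.861% of all probes were called (limma, with 0 receptor probes at an unadjusted p under 0.05 and 0 after Benjamini-Hochberg adjustment). It was 1 on day 0 (3.03% of all probes), 2 on day 1 (2.91%), 3 on day 2 (8.92%) and 3 on day 3 (2.76%). It was 2 on each of days 4, 5 and 6, with 2.4%, 3.24% and 3.88% of all probes called. PPARG itself was lower by 2.41 on day −2, when no receptor probe was called. Over time, 6 of the 7 probes changed in control siRNA cells, all but PPARD, where 23.5% of all probes did. In the KD 3 of the 7 did, those of RXRA, NR1H3 (4810215) and RXRB (5340438), where 16.5% of all probes did. Among the 9217 probes above background on at least 24 arrays the shares were 56.6% in control siRNA cells and 40.6% in the KD.

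Against day −2 under control siRNA, 3, 1, 3, 2, 2, 2 and 2 of the 7 probes were called on days 0 to 6, beside 9.06%, 8.49%, 13.9%, 4.32%, 4.47%, 5.18% and 6.24% of all probes. On day 0 these were the RXR probes, and from day 3 on they were the NR1H3 probes. In the KD 3, 0, 0, 1, 1, 1 and 2 were called, beside 7.39%, 4.64%, 2.77%, 1.58%, 2.41%, 3.12% and 4.4% of all probes. At an unadjusted p under 0.05 the KD had 3 such probes on day 1 and 1 on day 2, and after Benjamini-Hochberg adjustment 2 and 1. Whether the courses over time differ between the siRNAs was tested through the contrasts given above and not over all days at once.

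Ordered by level, the 16 conditions fell into different sequences for each receptor. For NR1H3 (4810215) the 5 highest were control days 6, 5, 2, 3 and 4, at 10.00 ± 0.05, 9.96 ± 0.11, 9.82 ± 0.04, 9.73 ± 0.17 and 9.66 ± 0.09 (SD, n = 3), with neighbours that overlapped. Control day 1 followed at 8.23 ± 0.12 without overlap on either side, then KD days 6, 2, 4, 5 and 3 between 7.74 ± 0.36 and 7.09 ± 0.22, overlapping from one to the next. KD day 0 was lowest at 5.72 ± 0.23, apart from the rest. For RXRA, control day 0 stood alone at the top at 9.76 ± 0.03, control day 2 (9.14 ± 0.05) overlapped with KD day 0 (8.90 ± 0.19), and KD days 3, 4, 5 and 6 were lowest, between 7.70 ± 0.22 and 7.54 ± 0.06, with neighbours that overlapped. For NR1H2 and for both RXRB probes every condition overlapped with the next.

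The course of NR1H3 across the 16 condition means was close to that of other genes that PPARγ KD lowered. Among 9217 probes above background on at least 24 arrays, the 3 with the highest Pearson correlation were ANKRD15 (0.988), MRAP, the melanocortin receptor accessory protein (0.974), and S100A1, a calcium-binding protein (0.974), and 107 probes exceeded 0.9. For RXRA the 3 were DAP3, a mitochondrial ribosomal protein (0.957), MED9, a Mediator subunit (0.942), and ABCF3 (0.937), and 15 probes exceeded 0.9. With PPARG the correlation over the same means was 0.795 for NR1H3 (4810215) and 0.315 for RXRA. Over the 8 means of control siRNA cells alone it was 0.791 for NR1H3 and -0.261 for RXRA, so the sign for RXRA turned once the KD means were left out. These means share arrays, cocktail and cells, and the correlations are descriptions over 16 points.

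Genes that act with the receptors were counted by the brightest probe of each, with the same test over days −2 to 6. That test called 13.1% of all probes, 6.74% as lower, and 30.4% of the 9217 probes above background on at least 24 arrays. With Benjamini-Hochberg adjustment it called 7605 of the 24613 probes. Of 14 receptors that pair with RXR, RXRG included, 5 were above background on any array, and 3 were called. PPARG was lower, and as the target of the siRNA its call was set by the design. VDR, the vitamin D receptor, was higher in the KD by 0.82 (SE 0.03, adjusted p = 8.56e-24) in 24 of 24 pairs. RARG, a retinoic acid receptor, was higher by 0.30 (adjusted p = 0.0307). VDR was 0.80 lower on day 6 than on day −2 under control siRNA. The RARG call was lost without replicate 1 (0.26, adjusted p = 1) and without replicate 2 (0.28, adjusted p = 1).

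Of 17 nuclear receptor coregulators, 14 were on the array, 4 were called as lower in the KD and 0 as higher by limma with Bonferroni adjustment, with a median difference of -0.09 (all probes, -0.03). Beside these counts stand 6.74% of all probes called as lower and 30.4% called among the 9217 probes above background on at least 24 arrays. At an unadjusted p under 0.05, 10 of the 14 differed, and 9 after Benjamini-Hochberg adjustment, which called 7605 of the 24613 probes. Of the latter 9, 5 were lower and 4 were higher in the KD. PPARGC1B (PGC-1β), a coactivator of mitochondrial genes, exceeded background in 18 of 24 control arrays but 0 of 24 KD arrays, at least 1.71-fold lower. PPARGC1A (PGC-1α), its relative, was lower by 1.44 (SE 0.06, adjusted p = 1.34e-20) in 24 of 24 pairs, with 16 of 24 KD arrays above background. NRIP1 (RIP140), a corepressor of fat cells, was lower by 0.72 (SE 0.09, adjusted p = 5.54e-05), a call lost without replicate 1 (-0.49, adjusted p = 1) and replicate 2 (-0.69, adjusted p = 0.566).

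Of 13 LXR target genes, 12 were on the array, and 7 of them were called as lower in the KD and none as higher, with a median of -0.60 over days −2 to 6 and of -0.95 over days 4 to 6 (all probes, -0.03 and -0.01). Over days −2 to 6, 6.74% of all probes were called as lower, and 30.4% of those 9217 brighter probes were called. At an unadjusted p under 0.05, 9 of the 12 differed, and 9 after Benjamini-Hochberg adjustment, which called 7605 of the 24613 probes. Of the latter 9, 8 were lower and 1 was higher in the KD. The higher one was PLTP, named here after its values were seen, by 0.26 (SE 0.05) with 7 of 24 pairs lower. Over days 4 to 6 PLTP was higher by 0.56 (SE 0.09). With Bonferroni adjustment limma called it in neither comparison (adjusted p = 0.552 and 0.360). Among the called genes, APOC1, an apolipoprotein, fell by 1.85 (SE 0.06), LPL, the lipoprotein lipase, fell by 1.72 (SE 0.04), and ABCG1, a cholesterol exporter, fell by 1.51 (SE 0.06). ABCG1 exceeded background in 22 of 24 control arrays but 10 of 24 in the KD. Several of these genes, such as LPL, are also known targets of PPARγ, so the list does not report on the LXRs alone. SREBF1 and MYLIP, textbook LXR targets named here after their values were seen, were above background on no array, and ABCA1 was on 1.

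Of 12 genes of lipid use that PPARδ can turn on, 11 were on the array, 6 were called as lower and 1 as higher, with a median of -0.38. Among all probes 13.1% were called and 6.74% called as lower, and among those 9217 brighter probes 30.4% were called. ANGPTL4, a secreted inhibitor of lipoprotein lipase, fell by 1.28 (SE 0.04), and UCP2, a mitochondrial carrier, fell by 0.76 (SE 0.04). PDK4, a kinase that restrains pyruvate oxidation, was higher in the KD by 0.63 (SE 0.04, adjusted p = 3.50e-12), with 2 of 24 pairs lower. As the PPARD transcript was not measurable and PPARγ shares these targets, the list does not report on PPARδ alone.

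Enzymes and carriers that supply the ligands were counted last. Of 15 genes of retinoid supply and removal, 7 were above background on any array, 2 were called as lower and 2 as higher, beside 13.1% of all probes called. ADH1, an alcohol dehydrogenase that can oxidise retinol, fell by 1.63 (SE 0.08, adjusted p = 8.54e-17), and RDH11, a retinal reductase, by 0.35 (SE 0.03). RDH10, a retinol dehydrogenase, was higher by 0.37 (SE 0.04). Of 6 genes of oxysterol supply and removal, limma with Bonferroni adjustment called 0, with 3 at an unadjusted p under 0.05 and 1 after Benjamini-Hochberg adjustment.

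**Figure D3:**
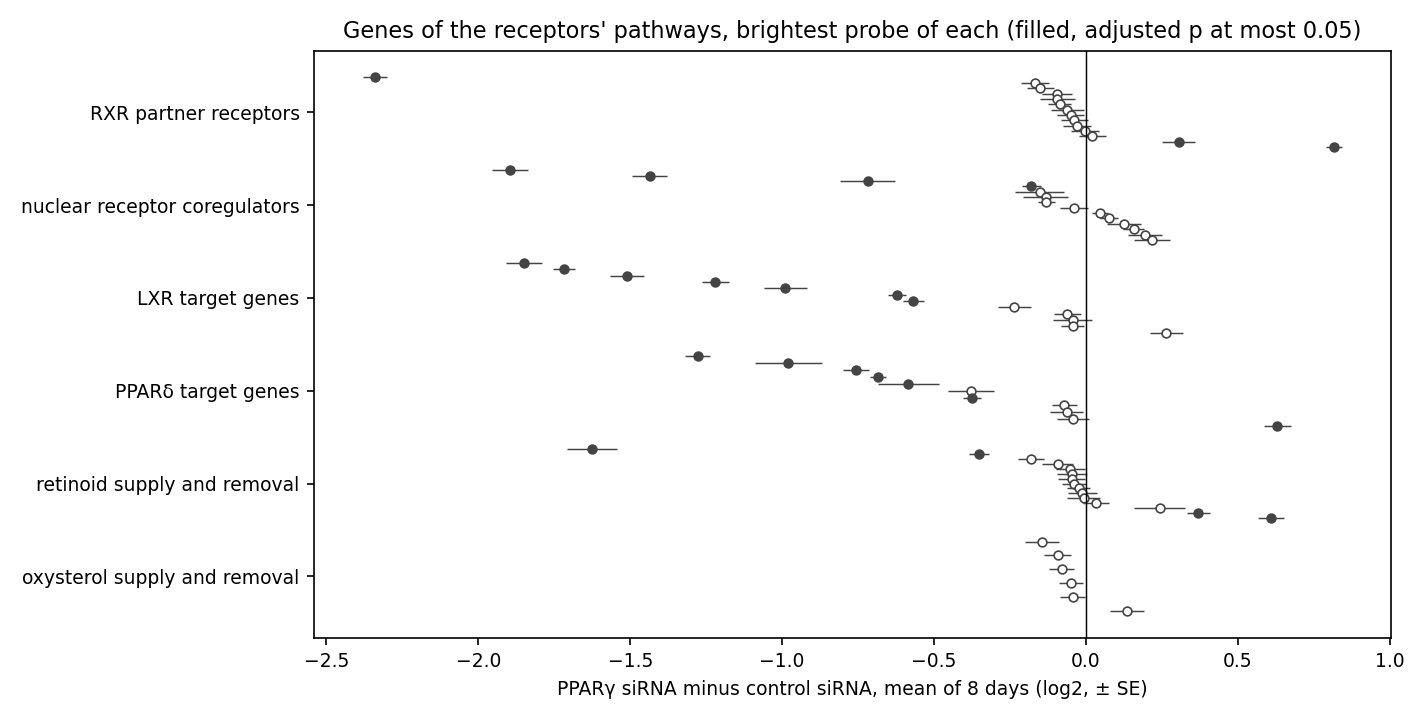
PPARγ KD minus control siRNA difference in log2 intensity, averaged over days −2 to 6 (horizontal axis), of the genes of 6 lists around the receptors (rows), each by its brightest probe. Points are estimates over 24 arrays per siRNA, bars are ± SE, and filled symbols passed the threshold of 0.05 after Bonferroni adjustment. The called LXR target genes all lie to the left of 0, and the oxysterol genes have no filled symbol.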

How the data were processed

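Total RNA of 48 samples was hybridised to Illumina MouseRef-8 BeadChips. For every array the authors deposited the mean intensity over the beads of each probe, read out in BeadStudio 3.3.7 without normalization, with its SD between beads, the bead counts and a detection column, a fraction from which the detection p-value was obtained as 1 minus the entry. Whether local background had been subtracted is not given in the sources used here. The array medians lay between 105.1 and 141.7, and the number of arrays limits the precision.

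Background was corrected in R 4.3.3 with limma 3.58.1 (normexp with the detection p-values, offset 16). Arrays were scaled to the mean array on probes of the 50th to 90th percentile that shifted in rank by under 0.05 of all probes (factors 0.730 to 1.58), and log2 was taken. This follows the study's rank-invariant normalization without being BeadStudio's own routine. A mean per siRNA and day plus the replicate number was fitted to all 48 arrays (lmFit, eBayes), days 4 to 6 also to their own 18, with Bonferroni adjustment over 24613 probes. The p-values measure the spread of arrays about the fitted means, pooled over the days of a fit. The fit has no term for how the siRNA effect itself varied between the 3 biological replicates. Over days −2 to 6 the SD of that effect between replicates was 0.19 for NR1H3 (4810215) and 0.12 for RXRA, beside SEs of 0.05 and 0.04. The SEs and p-values thus treat the days of 1 replicate as independent and can overstate the precision. Same-numbered arrays deviated from their condition means together in 24 of 24 pairs (correlations 0.544 to 0.914), and replicates 1 and 2 did so across numbers too (0.569 to 0.854), so the number mainly sets replicate 3 apart. The study's methods name a batch effect that was removed in an ANOVA but do not say which arrays form a batch, or whether the replicate number marks it.

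The receptors and the gene lists were chosen with earlier results of these data known. All probes of the 5 receptors are given, PPARG by its brightest probe, the 3 largest called falls and rises of each list (apart from 2 genes, which are not reported here), and for receptors whose condition means span at least 1 log2 unit the 3 probes most like them. Where one side had no array above background, a bound is given if one exists. It sets the bright side's mean over all its replicates against a floor. The floor is the mean, per array, of the higher of the lowest signal above background and the probe's own signal. No bound exists where the bright side's mean lay below this floor. Promoters were read from RefSeq windows. Alternatives were quantile normalization, no background correction, offset 50, a filter on dim probes, no block, Benjamini-Hochberg adjustment and leaving out each replicate. The contrast of day 0 and day −2 was added after the daily values were seen. The fits were tested on simulated data. The simulation drew an independent error for each array, so it cannot show whether spread shared by the days of a replicate is understated.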

Additional observations from a re-analysis of the deposited data

Results flagged for a closer look

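The siRNA effect on NR1H3 differed between the late and the early days by the test of that difference. It was larger on days 4 to 6 than on days 0 to 2 by -0.90 on probe 4810215 (adjusted p = 1.61e-05) and by -0.80 on probe 5570292 (adjusted p = 0.00300), which was above background on no KD array. On probe 4810215 the effect was already -2.44 on day 2, beside -2.47 over days 4 to 6, and on day 0 no KD array was above background. The siRNA effect on RXRA differed between day 0 and day −2 by -0.88 (adjusted p = 0.0283), in a contrast chosen after the daily values were seen.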

How the results depend on the processing

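For the 7 receptor probes no called value changed sign under any setting, and the falls of NR1H3 (both probes) and RXRA over days −2 to 6 were called under every setting. NR1H3 was also called over days 4 to 6 under every setting. RXRA over days 4 to 6 was not called with quantile normalization (-0.48), with no replicate block (-0.50, adjusted p = 0.295) or without 1 replicate (-0.57 to -0.45), and its change from day −2 to day 0 was not called with quantile normalization (-0.82), with no replicate block (-0.88, adjusted p = 0.208) or without 1 replicate (-1.05 to -0.73). For days 4 to 6 minus days 0 to 2, NR1H3 probe 5570292 was not called without background correction (-0.42), with offset 50 (-0.50), with no replicate block (-0.80, adjusted p = 0.917) or without 1 replicate (-0.84 to -0.74), and NR1H3 probe 4810215 ranged from -0.97 to -0.85 without 1 replicate. Under Benjamini-Hochberg adjustment RXRA (0.36) and RXRB probe 5340438 (0.23) were called in that contrast, RXRB probe 5340438 over days −2 to 6 (-0.12) and NR1H3 probe 4810215 from day −2 to day 0 (-0.95).

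Change over time in control siRNA cells was not called without 1 replicate for RXRB probe 1780040 (span 0.74 to 0.76, lost without replicate 1 or 2), RXRB probe 5340438 (0.62 to 0.64) and NR1H2 (0.62 to 0.72), and with no replicate block for RXRB probe 5340438 (0.63) and NR1H2 (0.64). In the KD, RXRB probe 5340438 was not called with offset 50 (0.51), with no replicate block (0.56) or without 1 replicate (0.54 to 0.59). In the KD, RXRB probe 1780040 became called with quantile normalization (0.61), with the filter on dim probes (0.61) and under Benjamini-Hochberg adjustment (0.61), and NR1H2 likewise (0.46, 0.44 and 0.44). The causes were not tested, beyond fewer arrays or fewer probes entering a fit.

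Over all probes, calls over days −2 to 6 numbered 3227 and ranged from 1749 without replicate 2 to 7605 under Benjamini-Hochberg adjustment, and those over days 4 to 6 numbered 1307 (547 to 5125). LXR target genes called as lower ranged from 5 to 8. Signal over background limits PPARD and the dimmer NR1H3 probe. A BeadChip block was not run, because no source used here gives the BeadChip of an array.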
